A study of Homo sapiens with 8 samples.

Results

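The immediate early genes EGR1, IER5, FOS, JUN, JUNB, JUND, DUSP1 and IER2 were described in L363 cells given the IKKβ inhibitor MLN120b. L363 is an established human myeloma line, and IKKβ is the kinase that phosphorylates the IκB inhibitors and so frees NF-κB. Features assigned to these genes by the platform's probe annotation were kept when they had values on 5 or more arrays. This left 15 of 28 annotated features and 6 of the 8 genes, out of 15246 features in the series. EGR1 and IER2 had no such feature. The treated cells received 12.5 µM MLN120b at 37 °C for 8 h (2 samples), 12 h (3 samples) or 24 h (3 samples), and the control cells received the solvent DMSO alone. Each sample was 1 array carrying treated cDNA in Cy5 and DMSO cDNA in Cy3, and no array had the dyes exchanged. L363 is a single line, and the labels do not say whether each sample was a culture of its own, so all p-values below cover the spread among samples that may be technical repeats.

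Values were log2 ratios of the channels after each array was centred on its median, so that 0 is the typical feature and 1 is a 2-fold difference. The ratio was likely MLN120b over DMSO, which the sources used here do not state. If it ran the other way, every direction below would turn round. A ratio holds no level, so the expression of plasma cell markers could not be checked, although all 9 of those listed had a row with values. The arrays differed in coverage and spread. From 6344 to 13007 features had a value, and the SD of the deposited values was 0.213 to 0.279 on some arrays and 1.00 to 1.42 on others. These differences followed 3 runs of consecutive database identifiers in the labels. Run 1 held sample 3 of the 12 h and 24 h times and had SDs of 0.584 and 0.351. Run 2, with the highest SDs, held sample 1 of the 12 h and 24 h times and sample 2 of the 8 h time. Run 3, with the lowest, held sample 2 of the 12 h and 24 h times and sample 1 of the 8 h time. Correlations over features were 0.10 to 0.563 within runs (7 array pairs) and -0.207 to 0.13 between runs (21 pairs). Unless a block is named, standard errors (SE) and intervals below take arrays of a run as separate. They use 1 spread per gene shared by all times, so those of a single time are not the spread of its own samples.

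Immediate early genes are transcribed within minutes of a stimulus without new protein synthesis, and most of their transcripts are short-lived. FOS and the JUN proteins are leucine zipper subunits that pair to form the transcription factor AP-1. DUSP1 is a nuclear phosphatase that switches off MAP kinases, EGR1 is a zinc finger factor, and IER2 and IER5 are nuclear proteins that act on transcription. In many cells these genes respond to MAP kinase and calcium signals through serum response factor, its ETS-family partners and CREB at the promoter.

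Promoters are shown for the 4 genes on which most of the results turn, so that the elements found upstream of each can be seen. Each sequence is the 250 bases upstream of the annotated start, from RefSeq on GRCh38.p14, for IER5 at chr1:181088450-181088699 on the plus strand, FOS at chr14:75278578-75278827 on the plus strand, JUNB at chr19:12791236-12791485 on the plus strand and DUSP1 at chr5:172771196-172771445 on the minus strand. Capitals mark a TATA box (TATAAA) or a cyclic AMP response element (TGACGTCA).
IER5: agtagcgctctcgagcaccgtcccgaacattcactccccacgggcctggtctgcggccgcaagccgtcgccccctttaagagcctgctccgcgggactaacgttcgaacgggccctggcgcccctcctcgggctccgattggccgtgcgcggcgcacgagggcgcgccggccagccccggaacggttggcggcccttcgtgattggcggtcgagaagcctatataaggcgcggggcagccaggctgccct
FOS: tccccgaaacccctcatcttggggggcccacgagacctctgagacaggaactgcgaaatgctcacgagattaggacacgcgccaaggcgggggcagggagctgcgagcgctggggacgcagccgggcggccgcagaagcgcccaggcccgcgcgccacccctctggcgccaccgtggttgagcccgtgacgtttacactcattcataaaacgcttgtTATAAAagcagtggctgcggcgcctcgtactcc
JUNB: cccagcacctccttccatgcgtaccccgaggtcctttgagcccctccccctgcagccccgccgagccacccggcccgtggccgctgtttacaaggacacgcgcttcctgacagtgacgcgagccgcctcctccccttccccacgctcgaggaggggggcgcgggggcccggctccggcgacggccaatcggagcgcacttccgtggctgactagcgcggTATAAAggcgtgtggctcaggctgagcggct
DUSP1: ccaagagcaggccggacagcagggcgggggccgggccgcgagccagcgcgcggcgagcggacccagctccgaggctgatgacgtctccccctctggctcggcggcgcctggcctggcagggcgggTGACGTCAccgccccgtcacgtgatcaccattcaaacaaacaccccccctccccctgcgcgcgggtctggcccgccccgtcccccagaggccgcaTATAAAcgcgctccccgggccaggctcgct
TATAAA, searched on both strands, lay at -33 to -28 from the start in FOS, at -31 to -26 in JUNB and at -30 to -25 in DUSP1. It was found in 3 of the 8 promoters and in 10.7% of 35116 RefSeq promoter windows of this length. TGACGTCA lay at -125 to -118 in DUSP1 and at -200 to -193 in JUND, and was found in 1.65% of all windows. The CArG box, CCWWWWWWGG with W as A or T, is the serum response element's core. Among the 8 windows it was found in that of EGR1 alone, as CCATATTAGG at -105 to -96 and CCATATATGG at -83 to -74. It was found in 1.16% of all windows. The AP-1 site TGANTCA (6.57% of windows), the EGR site GCGTGGGCG (0.72%) and the κB consensus (9.96%) were in none of the 8 windows. No overlap between these motifs occurred in the 8 windows. Such matches describe letters in these windows and not bound sites. Only the patterns given were searched, so a variant of an element inside a window would be missed. The IER5 window, for example, holds tatataag, which is not a match to TATAAA. Sequence farther upstream was not searched, so an element not found here may also lie outside the window.

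No immediate early gene passed the adjusted test at any time, and neither did any other of the 5320 rows tested (0% called). The mean log2 ratio over the 3 times was negative for IER5, JUN, JUNB and JUND and positive for FOS and DUSP1, with sizes of 0.10 to 0.50. In the same cells NFKBIA, which encodes the NF-κB inhibitor IκBα and is itself an NF-κB target, had a ratio below 0 on 8 of 8 arrays and a mean of -0.93 ± 0.14 (SE, n = 8). TNFAIP3, the feedback inhibitor A20, was also below 0 on 8 of 8 arrays, with a mean of -0.84 ± 0.18 (SE, n = 8). Neither passed limma's test with Benjamini-Hochberg adjustment (adjusted p = 0.431 and 0.866). In bulk RNA, fewer cells of a kind and less RNA per cell cannot be told apart.

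**Figure D1:**
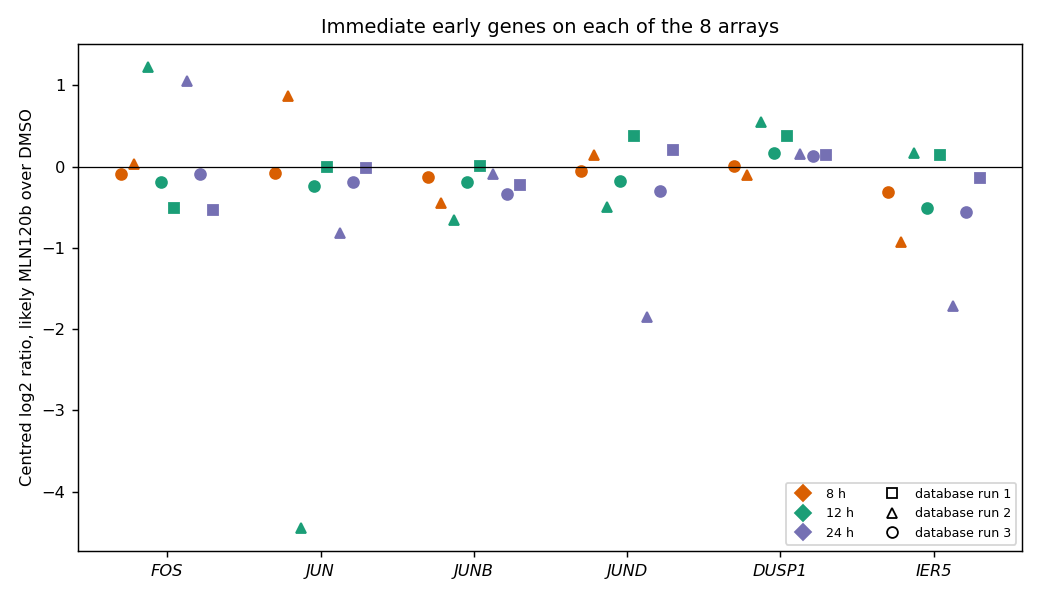
Centred log2 ratio (likely MLN120b over DMSO) of the 6 measured immediate early genes on each of the 8 arrays, coloured by time, with a marker shape for each database run. Run 2 (triangles) holds most of the extreme values, such as JUN at -4.44 and FOS at 1.22, both on sample 1 at 12 h.

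FOS, with which JUN proteins form stable AP-1 pairs, had log2 ratios of -0.09 and 0.03 at 8 h. At 12 h they were 1.22, -0.19 and -0.51, and at 24 h 1.05, -0.09 and -0.53, for samples 1, 2 and 3. The arrays of run 2 at 12 h and 24 h were thus high, those of run 1 were low, and those of run 3 lay between. Run means of the gene were -0.52 in run 1 (n = 2), 0.77 in run 2 (n = 3) and -0.12 in run 3 (n = 3). The mean over the 3 times was 0.10 ± 0.24 (SE, n = 8; 95% interval -0.44 to 0.63), and its sign turned to -0.25 ± 0.12 without run 2, -0.03 on the values as deposited, -0.13 with quantile and -0.12 with scale normalization. On the 6 arrays that its 2 features shared they correlated at 0.896, but at 0.522 without sample 1 at 24 h, where they had 0.96 and 1.14. They had the same sign on 3 of the 6, and on the arrays of run 3 they opposed each other, with -0.23, -0.48 and -0.28 for the first and 0.05, 0.11 and 0.10 for the second. At 12 h and 24 h, high and low values of the FOS average thus went with the run. The run 2 array at 8 h, sample 2, had 0.03, from the second feature alone. On sample 1 at 12 h the first kept feature alone had a value. The part of the arrays' spread in these differences was not tested.

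JUN, the prototype AP-1 subunit, had log2 ratios of -0.09 and 0.86 at 8 h, -4.44, -0.24 and 0 at 12 h, and -0.82, -0.19 and -0.02 at 24 h. Of the 8 arrays, 6 were below 0, 1 was above it and 1 was at 0. The value of -4.44 came from 1 feature on sample 1 at 12 h, where the other kept feature had no value. The mean over the 3 times was -0.50 ± 0.45 (SE, n = 8) and the 12 h mean was -1.56 ± 0.72 (SE, n = 3; 95% interval -3.19 to 0.072). Without that sample they were -0.02 ± 0.16 and -0.12 ± 0.30. The JUN mean at 12 h therefore rested on 1 value of 1 feature. The kept feature with the fewest arrays, the second JUN feature, was measured on exactly 5 and had -0.01, 1.26, -0.23, -0.08 and -0.45. Just below the minimum of 5 arrays, JUN feature 3 with 4 values was above 0 on each, from 0.21 to 0.31.

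JUNB, an AP-1 subunit that often restrains JUN, was below 0 on 7 of 8 arrays. Its log2 ratios were -0.13 and -0.45 at 8 h, -0.65, -0.18 and 0.01 at 12 h, and -0.09, -0.34 and -0.23 at 24 h. The means of the 3 times lay within their errors, at -0.29 ± 0.25, -0.28 ± 0.21 and -0.22 ± 0.21 (SE). Over the 3 times JUNB averaged -0.26 ± 0.13 (SE, n = 8; 95% interval -0.55 to 0.029). Limma gave this an adjusted p = 0.866 (0.072 before adjustment). Without run 2 it was -0.17 ± 0.11, so the sign held without the most variable arrays. Its features did not move together, and correlations of the 3 pairs ran from -0.394 to 0.56, with 1 above 0. The fitted means of the 3 were -0.41 ± 0.18, -0.02 ± 0.17 and -0.31 ± 0.16. On sample 1 at 24 h these features disagreed in sign, with -1.01, 0.62 and 0.13.

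JUND, the AP-1 subunit that many resting cells already hold, was measured by 1 feature. Its log2 ratios were -0.05 and 0.15 at 8 h, -0.50, -0.18 and 0.38 at 12 h, and -1.85, -0.30 and 0.21 at 24 h. Samples above and below 0 occurred at each time, and the lowest lay far from the rest. The 24 h mean was -0.65 ± 0.36 (SE, n = 3), and -0.05 without sample 1. The mean over the 3 times was -0.23 ± 0.22 (SE, n = 8) and 0.0004 ± 0.14 without run 2, and the 8 h mean of 0.05 turned to -0.03 with quantile and -0.02 with scale normalization.

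DUSP1, the feedback phosphatase, was the most densely measured gene, with 6 kept features of 8 annotated. Its log2 ratios were 0.01 and -0.10 at 8 h, 0.54, 0.17 and 0.38 at 12 h, and 0.15, 0.13 and 0.14 at 24 h. They lay above 0 on 7 of 8 arrays, with the 3 highest at 12 h. The 12 h mean was 0.36 ± 0.18 (SE, n = 3; 95% interval -0.05 to 0.78). Limma gave it an adjusted p = 0.940 (0.078 before adjustment). The mean over the 3 times was 0.15 ± 0.11 (SE, n = 8), 0.14 ± 0.11 without run 2 and 0.02 on the values as deposited, where the median over all rows was -0.12. Also as deposited, the 24 h mean was -0.02, in place of 0.14 after centring. Of the 6 features 5 had a mean above 0, and on sample 3 at 12 h all 6 were above 0, from 0.07 to 0.52. Across arrays, however, features of this gene did not move as 1. In the 13 pairs with 6 or more shared arrays, correlations ran from -0.717 to 0.764 and 7 were above 0. At 24 h the first feature had 0.87, 0.70 and 0.71, and the means of the other 5 ran from -0.08 to 0.08. On sample 1 at 12 h the features with a value ran from -0.55 to 1.25.

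IER5, known for activating heat shock factor HSF1, was measured by 1 feature and had the smallest unadjusted p of the 6 genes by limma for the mean over the 3 times, though not by the sign-flip test given below. Its log2 ratios were -0.32 and -0.93 at 8 h, 0.17, -0.51 and 0.145 at 12 h, and -1.72, -0.55 and -0.14 at 24 h. It was below 0 on 6 of 8 arrays, and both exceptions were at 12 h. The mean over the 3 times was -0.50 ± 0.20 (SE, n = 8; 95% interval -0.94 to -0.056). Limma gave an adjusted p = 0.866 (0.031 before adjustment). At 24 h it was -0.80 ± 0.31 (SE, n = 3), and -0.35 without sample 1. Limma gave the 24 h mean an adjusted p = 0.99992 (0.030 before adjustment). Without run 2 the mean over the 3 times was -0.28 ± 0.14. The fit took arrays of a run as separate. With run as a random block the mean over the 3 times was -0.47 ± 0.24 (SE). With 1 mean per run it was -0.43 ± 0.22 (SE). On the 3 arrays of run 3, where the spread was smallest, IER5 had -0.32, -0.51 and -0.55. On the 2 arrays of run 1 it had 0.145 and -0.14. Run means were 0.004 in run 1, -0.83 in run 2 and -0.46 in run 3, so run 1 showed no fall.

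**Figure D2:**
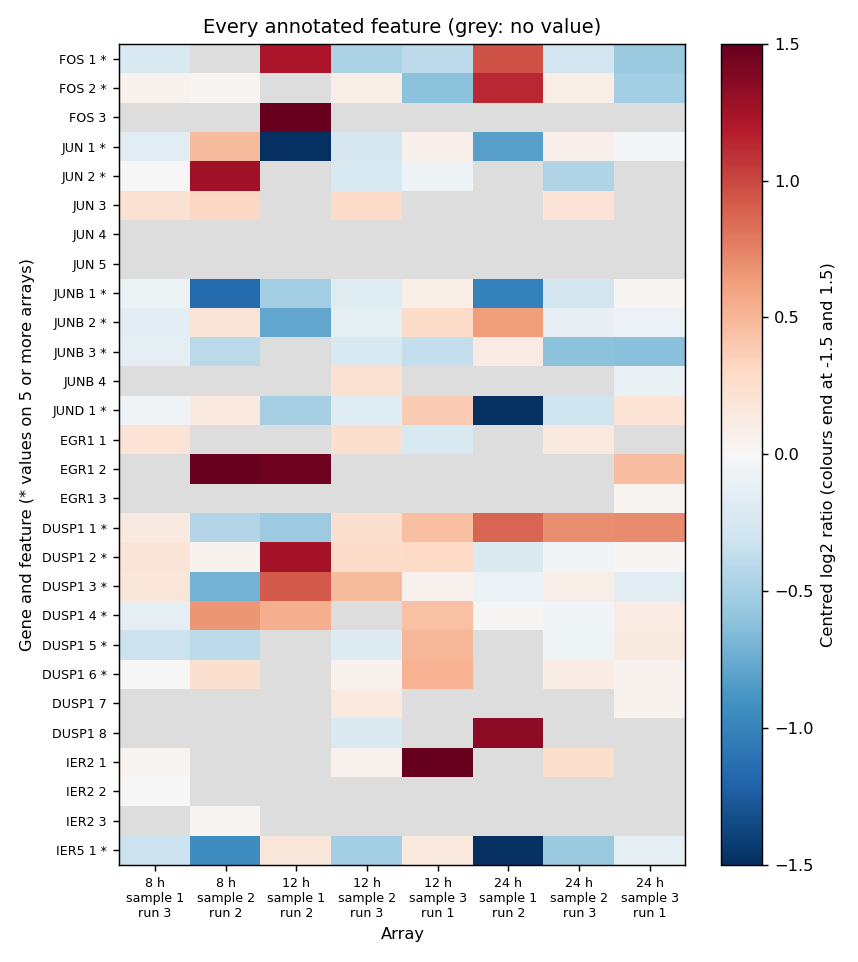
Centred log2 ratio of each of the 28 annotated features (rows; an asterisk marks the 15 with values on 5 or more arrays) on each array (columns, 8 h to 24 h). Colours end at -1.5 and 1.5 and grey marks no value. The EGR1, IER2 and lower DUSP1 rows are mostly grey, and single features of DUSP1 and JUNB differ in sign on the same array.

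EGR1 had 3 features, none on 5 or more arrays. The first had 0.21 at 8 h (sample 1), 0.24 and -0.23 at 12 h (samples 2 and 3) and 0.15 at 24 h (sample 2). The second had 2.97 at 8 h (sample 2), 1.45 at 12 h (sample 1) and 0.47 at 24 h (sample 3). These 2 features shared no array, and 2 of the 3 arrays of the second belonged to run 2. The third had a value on sample 3 at 24 h alone, 0.04, where the second had 0.47. With all features averaged, EGR1 had 0.76 ± 0.34 over the 3 times (SE, n = 7), which mixes features measured on different arrays. Limma gave this an adjusted p = 0.869 (0.055 before adjustment). IER2 was measured on 4 arrays by its first feature, at 0.04, 0.07, 1.54 and 0.27, and on 1 array by each of its other features. IER2 therefore has no tested value.

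Over all 5320 rows tested, no row passed adjusted p under 0.05 by limma for the mean over the 3 times (0% called), and 0 of the 6 immediate early genes did. At unadjusted p under 0.05 the mean called 1 of 6 (IER5), against 3.52% of all rows. At 8 h, 0 of 6 passed either way, against 0% of all rows after adjustment and 2.22% before it. At 12 h, 0 of 6 passed either way, against 0% and 3.23% of rows. At 24 h, 0 of 6 passed after adjustment and 1 of 6 (IER5) before it, against 0% and 2.11% of rows. The median over the 6 genes was -0.25 for the mean over the 3 times, against -0.01 over all rows, of which 52.2% were below 0. By time it was -0.04 at 8 h, -0.08 at 12 h and -0.28 at 24 h. An exact 2-sided sign-flip test over the 8 arrays gave unadjusted p = 0.0156 for JUNB, 0.0234 for DUSP1 and 0.0547 for IER5. The smallest p it can give is 0.0078. At unadjusted p under 0.05 it called 2 of 6 genes, against 7.5% of all rows, and no row after adjustment (smallest adjusted p 0.483). It treats arrays of a run as separate, and over the 3 runs no p under 0.25 can be reached.

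**Figure D3:**
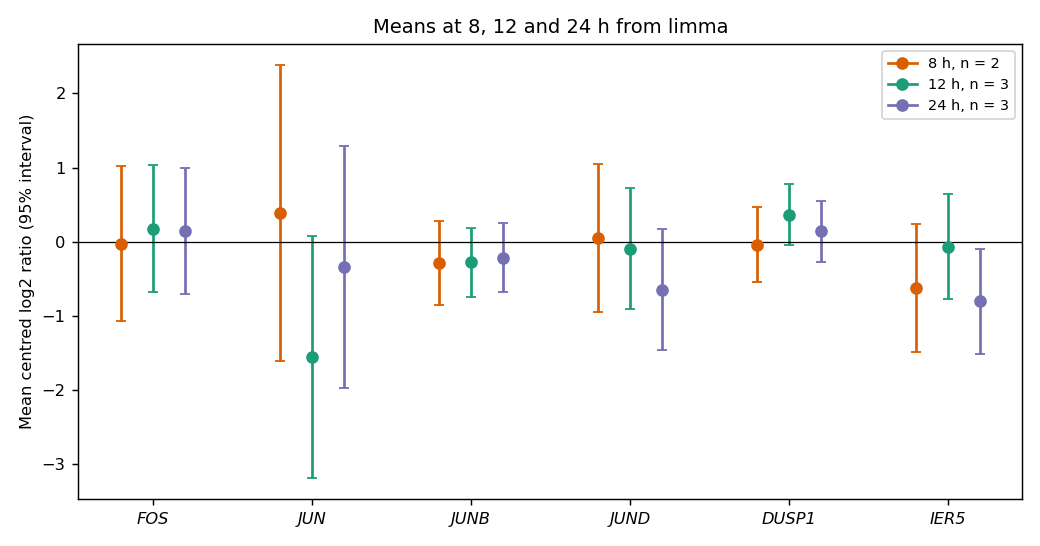
Mean centred log2 ratio of each gene at 8 h (n = 2), 12 h (n = 3) and 24 h (n = 3) from limma. The 95% intervals use a spread shared by all times. The intervals of the 3 times overlap for every gene shown, and only IER5 at 24 h has an interval that leaves out 0.

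No difference between times passed the test for any of the 6 genes. For 24 h against 8 h, 0 of 6 passed with or without adjustment (smallest unadjusted p 0.254), against 0% of all rows with limma's adjustment and 0.808% without it. For 12 h against 8 h it was 0 of 6 (smallest unadjusted p 0.122), against 0% and 1.2% of rows. For 24 h against 12 h it was 0 of 6 (smallest unadjusted p 0.130), against 0% and 0.695% of rows. JUN had the greatest difference in size, -1.95 ± 1.14 for 12 h minus 8 h (SE), which held the 12 h sample 1 value described above. IER5 was lower at 24 h than at 12 h by a difference of -0.74 ± 0.44 (SE; 95% interval -1.74 to 0.26). Samples 1, 2 and 3 had differences of -1.89, -0.04 and -0.28 for IER5, -1.35, -0.13 and -0.18 for JUND, and -0.39, -0.04 and -0.23 for DUSP1. Same-numbered samples of these times were also those of the same run, and they deviated together. In 3 of the 6 genes the paired differences had 1 sign, against 30.4% of the 3420 rows with all pairs. With sample number as a replicate block the IER5 difference was -0.74 ± 0.43, JUND -0.55 ± 0.35 and DUSP1 -0.22 ± 0.23 (SE), and again no row passed limma's adjusted test. That block joins the 8 h arrays to arrays of another run. With run as a fixed block the differences were -0.74 ± 0.39, -0.55 ± 0.37 and -0.22 ± 0.22 (SE). JUNB had the smallest differences from 8 h, 0.07 ± 0.33 for 24 h minus 8 h and 0.01 ± 0.33 for 12 h minus 8 h (SE). For 24 h minus 12 h FOS differed least, by -0.04 ± 0.53 (SE).

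Other genes of the same response were taken from lists. Among 40 other immediate early and early response genes, 20 were tested, 6 were above 0 and 14 below, with a median of -0.08 for the mean over the 3 times. None passed the adjusted test and 1 of 20 (MYC) had an unadjusted p under 0.05 by limma, against 3.52% of all rows. MYC, the growth-promoting transcription factor, was highest at 0.34 ± 0.13 and above 0 on 7 of 8 arrays, the exception being -0.18 on sample 1 at 12 h. PIM1, a serine/threonine kinase, was lowest at -0.42 ± 0.19 and below 0 on 8 of 8 arrays, with -1.72 on sample 1 at 12 h. Its mean was -0.26 without that sample and -0.17 without run 2. Among all rows, 2545 were above 0 and 2775 below.

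Of 22 bZIP partners of AP-1, 10 were tested, with 4 above and 6 below 0 and a median of -0.03. None passed the adjusted test, against 0% of all rows, of which 52.2% were below 0. ATF6, a sensor of endoplasmic reticulum stress, was highest at 0.13 ± 0.12, and CREM, a cyclic AMP response factor, lowest at -0.20 ± 0.17 (n = 7) and at 0.001 without run 2. Of 15 dual-specificity phosphatases other than DUSP1, 7 were tested, with 3 above and 4 below 0 and a median of -0.01. DUSP2, another nuclear MAP kinase phosphatase, had 0.41 ± 0.23 (n = 7), with 1.53 and 1.20 on arrays of run 2 and -0.19 to 0.33 on the other arrays, and its mean was 0.05 without run 2. DUSP12 was lowest at -0.13 ± 0.16, and at 0.02 without run 2.

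In the MAP kinase cascade, which signals to these genes, 29 of 40 listed genes were tested. Of these, 11 were above and 18 below 0, with a median of -0.08, and 52.2% of all rows were below 0. None passed limma's test at either p, against 0% of all rows after adjustment and 3.52% before it. MAPKAPK5, a kinase downstream of p38, was highest at 0.20 ± 0.15, and at 0.03 without run 2. ARAF, a RAF kinase, was lowest at -0.58 ± 0.41, with -4.03 on sample 1 at 12 h, and at 0.004 without run 2. Of 15 factors that act at immediate early promoters, 9 were tested, with 4 above and 5 below 0 and a median of -0.06. CRTC2, a CREB coactivator, was highest at 0.25 ± 0.15 (n = 6), and ELK3, an ETS partner of serum response factor, was lowest at -0.35 ± 0.17, and at -0.08 without run 2. None of these lists had a gene past the adjusted test. The median of the 6 immediate early genes, -0.25, was -0.12 without sample 1 at 12 h and -0.13 without run 2. That of the MAP kinase list ran from -0.13 to -0.005 with each array left out, and differences between list medians were not tested.

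**Figure D4:**
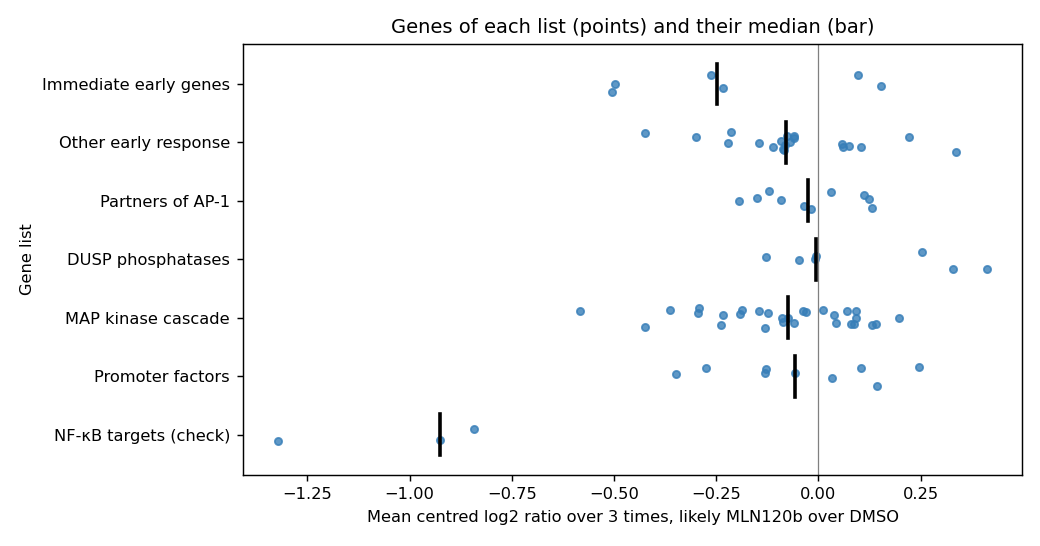
Mean centred log2 ratio over the 3 times (x axis, likely MLN120b over DMSO) of each tested gene in 7 lists, as points, with the list's median as a bar. Points of the upper lists spread on both sides of 0, and the 3 NF-κB targets at the bottom lie at -1.32, -0.93 and -0.84.

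The genes whose ratio moved most like that of a member were found among 2757 named genes with 7 or more shared arrays, for the members with the smallest p. IER5 was closest to DBF4B, an activator of the CDC7 kinase (Pearson r = 0.986, n = 8), CDKN3, a phosphatase of cyclin-dependent kinases (0.982), and DDX1, an RNA helicase (0.979). Without the arrays farthest from the median, those of sample 1 at 24 h and 12 h, these were 0.946, 0.957 and 0.949. Correlations of 0.9 or more occurred with 65 of the 2757 genes (2.36%). With quantile normalization the 3 values were 0.639, 0.592 and 0.624, and with scale normalization 0.701, 0.602 and 0.634. JUNB was closest to OCIAD2 (0.980, n = 7), the corepressor TLE5 (0.955) and the proteasome subunit PSMB7 (0.950), with 30 genes at 0.9 or more (1.09%). Without sample 1 at 12 h and sample 2 at 8 h these were 0.897, 0.924 and 0.812. With quantile and with scale normalization OCIAD2 had 0.695 and 0.675 and PSMB7 0.467 and 0.486, and with all features of a gene averaged TLE5 had 0.252. All such points share the same arrays, whose spread differed by run, and they are given as a description.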

How the data were processed

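The deposited values were the authors' log2 ratios of 2-colour spotted arrays, 1 column per array for 15246 features. Cy5 carried MLN120b-treated and Cy3 DMSO-treated L363 cDNA, per the labels. Base 2 is an assumption. A natural log ratio of 16-bit intensities cannot pass 11.1 and the largest size was 12.4, but on 1 array alone. The sources used here do not give the background correction, filters or normalization. Signal intensities were not used, so signal over background is unknown.

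Medians were subtracted per array. The platform annotation gave 1 gene for 10169 features, several for 4 and none for 5073, with symbols updated through RefSeq names (GRCh38.p14). Features of a gene with values on 5 or more arrays were averaged, and a row was tested if each time had 2 arrays with values (5320 rows, including 3220 named genes). A mean per time was fitted with limma 3.58.1 in R 4.3.3 (2-sided, 5 residual degrees of freedom, Benjamini-Hochberg over all rows, threshold 0.05) and set against 0; the labels do not say whether arrays shared 1 DMSO sample, and if they did its own spread is left out. Features of a gene are not replicates. Arrays of a run were taken as separate, and the spread of a row was shared by all times. The fit was tested on simulated data. Tables and plots used Python 3.11.15, pandas 2.3.3 and matplotlib 3.10.9.

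The members and lists were chosen with earlier results of these data known. Named were all members, the highest and lowest gene of each other list, NFKBIA, TNFAIP3, and the 3 genes most like each of the 2 members with the smallest p. No feature was annotated to IKBKB, which encodes IKKβ. Same-numbered samples at 12 h and 24 h, which lie in the same run, deviated together (r = 0.182, 0.208 and 0.312). Those at 8 h lie in another run and did not pair with them (-0.227 to -0.13). Whether the database runs are the study's 3 timecourses is not stated. Tried as alternatives were uncentred values, quantile or scale normalization, other filters, features on their own, blocks for sample number or run, array weights, robust variances, and arrays or runs left out.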

Additional observations from a re-analysis of the deposited data

How the results depend on the processing

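No immediate early gene passed limma's adjusted threshold under any alternative run, and the smallest adjusted p was 0.378, for IER5 without sample 1 at 8 h. For the mean over the 3 times the sign was kept by IER5 in 25 of 25 alternatives (-0.68 to -0.28), by JUN in 24 of 24 (-0.82 to -0.02), by JUNB in 24 of 24 (-0.39 to -0.17) and by DUSP1 in 24 of 24 (0.02 to 0.20). JUND turned in 1 of 25, to 0.000417 without run 2, and FOS in 9 of 24. Some settings, such as robust variances, cannot change an estimate, and all settings reuse the same arrays. These counts are therefore not independent checks. The FOS mean was -0.0329 as deposited, -0.13 with quantile and -0.12 with scale normalization, -0.017 with the replicate block, -0.017 with run as a fixed block, -0.16 with array weights, -0.25 without run 2, and -0.0782 to 0.21 with each array left out. By time, FOS at 8 h was 0.03 without run 3, and -0.0905 to 0.03 with each array left out. At 12 h it was -0.00283 as deposited, -0.12 with quantile, -0.0926 with scale normalization, -0.20 with array weights, -0.35 without run 2, and -0.35 to 0.52 with each array left out. At 24 h it was -0.018, -0.13, -0.16, -0.24 and -0.31 under the same 5 settings, and -0.31 to 0.48 with each array left out. JUN at 8 h was -0.085 without run 2, and -0.085 to 0.86 with each array left out. JUND at 8 h was -0.0312 with quantile and -0.0205 with scale normalization and -0.052 without run 2 (-0.052 to 0.15 with each array left out), and at 12 h 0.10 without run 2 (-0.34 to 0.10). DUSP1 at 8 h was 0.0118 without run 2 (-0.0987 to 0.0118) and at 24 h -0.0193 as deposited. IER5 at 12 h was 0.16 without run 3 (-0.18 to 0.16). CREM, DUSP12 and ARAF were 0.00108, 0.0186 and 0.00447 without run 2. The cause of these changes was not tested.

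Across all rows the count past the threshold was 0 with the settings reported, and for the mean it was 2 with quantile normalization, 2 with 1 or more values at each time, 7 with run as a fixed block and 8 without run 3, but 0 with run as a random block and 0 with 1 mean per run. At 8 h it was 4 with 1 or more values at each time, 3 with the replicate block and 17 without run 3, and at 24 h 2 with quantile normalization. For 24 h against 8 h it was 2 with 1 or more values and 8 without run 3, and for 12 h against 8 h 3 and 9. With each array left out it ran from 0 to 35 for the mean, 0 to 84 at 8 h, 0 to 51 for 24 h against 8 h and 0 to 57 for 12 h against 8 h, each highest without sample 1 at 8 h, which leaves 1 array at 8 h that is assumed to vary like the others. Of the NF-κB check genes 1 passed with quantile normalization and 1 with run as a fixed block. The replicate block changed no call of a member. With features on their own the median was -0.02, but over 13 features, 6 of them of DUSP1, in place of 6 genes. The number of arrays limits all of these values.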

Other observations

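Features of the immediate early genes measured on fewer than 5 arrays gave these further values. FOS feature 3 had a value on sample 1 at 12 h alone, 1.70, on the array where the first FOS feature had 1.22. DUSP1 feature 8 had -0.22 at 12 h (sample 2) and 1.34 at 24 h (sample 1), and feature 7 had 0.14 at 12 h (sample 2) and 0.05 at 24 h (sample 3). JUNB feature 4 had 0.23 at 12 h (sample 2), where the 3 kept features were between -0.23 and -0.14, and -0.11 at 24 h (sample 3). IER2 features 2 and 3 had 0.006 (sample 1) and 0.03 (sample 2) at 8 h. The first DUSP1 feature averaged 0.76 ± 0.25 at 24 h (SE, n = 3), with 0.87, 0.70 and 0.71 on samples 1, 2 and 3. The SE comes from the spread shared by all times and not from these values alone. The other 5 kept features ran from -0.08 to 0.08 at that time. Limma over features gave the mean of the first feature an adjusted p = 0.99968 (0.0135 before adjustment).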
